A study of Mus musculus with 3 samples.

Results

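The early response of mouse embryonic stem cells to a block of protein synthesis was described by comparing 1 single-cell RNA library of cells treated with cycloheximide for 3 h with 1 library of ethanol-treated control cells. Barcodes with at least 15000 unique molecular identifiers (UMIs, one per captured RNA molecule) and 1% to 20% mitochondrial UMIs were kept, which gave 1739 cells at 3 h and 2187 control cells, 3926 of the 6480 cells that the same limits keep in the whole series of 3 libraries. Both groups were unmodified E14 cells, a stem cell line of 129/Ola background, grown on gelatin with 15% serum and 1000 U/mL leukemia inhibitory factor (LIF). Treatment started 24 h after seeding with 250 µg/mL cycloheximide in 0.007% ethanol. The control was given ethanol for 6 h, so no ethanol control of 3 h was part of the comparison, and duration of ethanol and cycloheximide cannot be told apart. Cells of both groups were detached with trypsin and frozen with dimethyl sulfoxide before they were shipped for barcoding.

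Cycloheximide binds the ribosome and stops translation elongation. Many transcripts are degraded in step with their own translation: nonsense-mediated decay (NMD) acts on an RNA when a ribosome stops early on it, histone transcripts are normally degraded when DNA synthesis stops, and tubulin transcripts are degraded through their nascent protein. Short-lived regulators of transcription such as inhibitors of NF-kappaB also disappear when they are no longer made. In stem cells grown with serum and LIF, short-lived transcripts include many targets of LIF, fibroblast growth factor and BMP signalling.

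Sequence at the start of transcription was set out for the hosts of small nucleolar RNAs (snoRNAs), because members of this group were far from the control in both directions. Many of them are known to begin, like ribosomal protein messages, with a C followed by a run of C or T, the terminal oligopyrimidine tract. RefSeq stretches on GRCm38.p6 from 10 bases before to 20 bases after an annotated start are given 5′ to 3′, with such a run in capitals where it begins exactly at the start.
Gas5, chr1:161035156-161035185, plus strand: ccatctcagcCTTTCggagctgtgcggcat
Snhg8, chr3:123508317-123508346, minus strand: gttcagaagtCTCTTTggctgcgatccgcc
Rps6, chr4:86857348-86857377, minus strand: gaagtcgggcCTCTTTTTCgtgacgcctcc
Snhg1, chr19:8723477-8723506, plus strand: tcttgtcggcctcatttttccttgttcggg
Snhg12, chr4:132308668-132308697, plus strand: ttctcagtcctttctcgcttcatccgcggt
Zfas1, chr2:167062924-167062953, plus strand: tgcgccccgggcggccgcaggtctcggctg
Dancr, chr5:74093050-74093079, plus strand: ctcggggggggggggcagctccgcccctct
Snhg9, chr17:24719946-24719975, minus strand: actttccctcgccgaagccgcgccctacac
A C followed by 4 bases that are each C or T stood at an annotated start of 3.01% of the 27020 genes of the table and of 22.6% of 62 cytosolic ribosomal protein genes. It stood there in 2 of the 16 noncoding snoRNA hosts with an entry in the host list used here, Gas5 and Snhg8. That list may not hold every host. Gas5 has another annotated start without it. Of these 2 hosts, Gas5 was 4.65-fold higher at 3 h and Snhg8 was within 2-fold of the control. Outside the list, the unnamed transcript 1110038B12Rik, 6.10-fold higher, had the run at an annotated start but not at another. Counted near the start rather than exactly at it, the run was found in 8 of the 16 hosts. It was then found in 62.9% of the ribosomal protein genes and 34.4% of the 27020 genes. Among hosts at least 2-fold higher it was near the start in 5 of 9, and among the other hosts in 3 of 7. In Snhg12, which was higher, and in Snhg9, which was lower, such a run begins before the annotated start.

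A second set of stretches lies upstream of histone genes and of Gadd45g, the gene with the highest ratio of all. The capitals mark the octamer ATTTGCAT, or ATGCAAAT where it lies on the other strand, the DNA element bound by Oct family factors and long known from H2B promoters.
Hist3h2a, chr11:58954546-58954613, plus strand: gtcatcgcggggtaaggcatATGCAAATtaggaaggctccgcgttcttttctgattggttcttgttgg
Hist1h2be, chr13:23585990-23586057, minus strand: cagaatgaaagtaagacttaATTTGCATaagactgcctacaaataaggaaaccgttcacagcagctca
Hist1h2ab, chr13:23750939-23751006, plus strand: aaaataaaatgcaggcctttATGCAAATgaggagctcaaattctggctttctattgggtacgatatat
Hist2h2bb, chr3:96269632-96269699, plus strand: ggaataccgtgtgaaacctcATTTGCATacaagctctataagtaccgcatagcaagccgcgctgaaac
Gadd45g, chr13:51846552-51846619, plus strand: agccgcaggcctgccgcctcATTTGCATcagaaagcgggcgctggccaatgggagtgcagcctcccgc
On either strand, the octamer was found within the window from 250 bases before to 50 bases after the start in 1.97% of all genes of the table. It was found in 3 of 7 H2A genes and 4 of 10 H2B genes with an entry, and in none of 5 H1, 4 H3 and 4 H4 genes. These matches describe the windows and do not show that a factor was bound there.

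In the summed UMIs of each library, levels are given as CPM, the UMIs of a gene per 1000000 UMIs of the library's cells. Of the 32285 genes listed, 7493 had a mean of at least 10 CPM over both libraries and were compared. At 3 h, 283 of them (3.78%) were at least 2-fold higher than in the control and 46 (0.614%) at least 2-fold lower. A further step out, 47 genes were at least 4-fold higher and 3 at least 4-fold lower, and 10 were at least 8-fold higher. The higher genes made up 0.697% of UMIs in the control and 2.47% at 3 h, and the lower genes 0.883% and 0.357%. Of the genes past 2-fold, 86.0% were higher; with TMM factors, which estimate scaling from most genes, 71.5% were higher, and by mean UMIs per cell 96.1%. The median log2 ratio of all genes was 0.10, and percentiles 5 and 95 lay at -0.44 and 0.90. TMM factors shift every log2 ratio by -0.17 and UMIs per cell by 0.27, so lists of genes are read below against the median of all genes. Counts of list members past 2-fold are to be read against the shares of all genes, 3.78% higher and 0.614% lower. Among the genes given below as 2-fold higher, Cdkn2d, Clk4, Cstf2t, Ddit3, Egr1, Junb, Med18, Med26, Nodal, Selenos, Sox4, Tsr1 and Zfp990 are within 2-fold under TMM factors. Among those given as 2-fold lower, E2f2, Fos, Gm10076, Setd1b, Snhg3, Snhg4, Xbp1, mt-Nd4l and mt-Nd6 are within 2-fold by UMIs per cell. Fosb, Plk1, Rpl29, Slc38a2, Snhg11, Snhg20, Spry4 and Tubb3, given below as within 2-fold, are 2-fold lower under TMM factors. Atf4, Clk1, Klf2, Nfe2l2, Phlda1, Pnrc2 and Taf1d, also given as within 2-fold, are 2-fold higher by UMIs per cell. Among lists given below with no gene past 2-fold, that scaling adds 2 genes each for naive pluripotency and mRNA decay. It adds 1 each for NMD, ERK feedback, NRF2, Polycomb and mitochondrial ribosomal protein genes. Each side is 1 library, so no difference here has a replicate check and no test between conditions was made. Intervals (95%) cover the counting of UMIs only. Of the 283 higher genes, 101 were below 10 CPM in the control and so were included only through the 3 h library; 17 of the 46 lower genes were below 10 CPM at 3 h.

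Cells of the control held a median of 43160 UMIs and 6038 genes, and cells at 3 h 51726 UMIs and 6776 genes. Mitochondrial UMIs were 4.57% and 3.51% of the total, and 62 control barcodes but 1 barcode at 3 h were left out for under 1% mitochondrial UMIs. The 2 libraries shared 3 cell barcodes. All 10 stem cell markers were above the floor of 10 CPM, with a summed level of 7860 CPM in the control and 8700 CPM at 3 h. Feeder fibroblast markers summed to 6.94 and 5.75 CPM, with 4 of 10 at 0 UMIs in both libraries, and none of the 8 trophoblast, 7 mesoderm, 7 neural and 8 two-cell-like markers was above the floor. Among 9 primitive endoderm markers only Lamb1 was, at 20.2 CPM in the control and 14.9 CPM at 3 h.

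**Figure D1:**
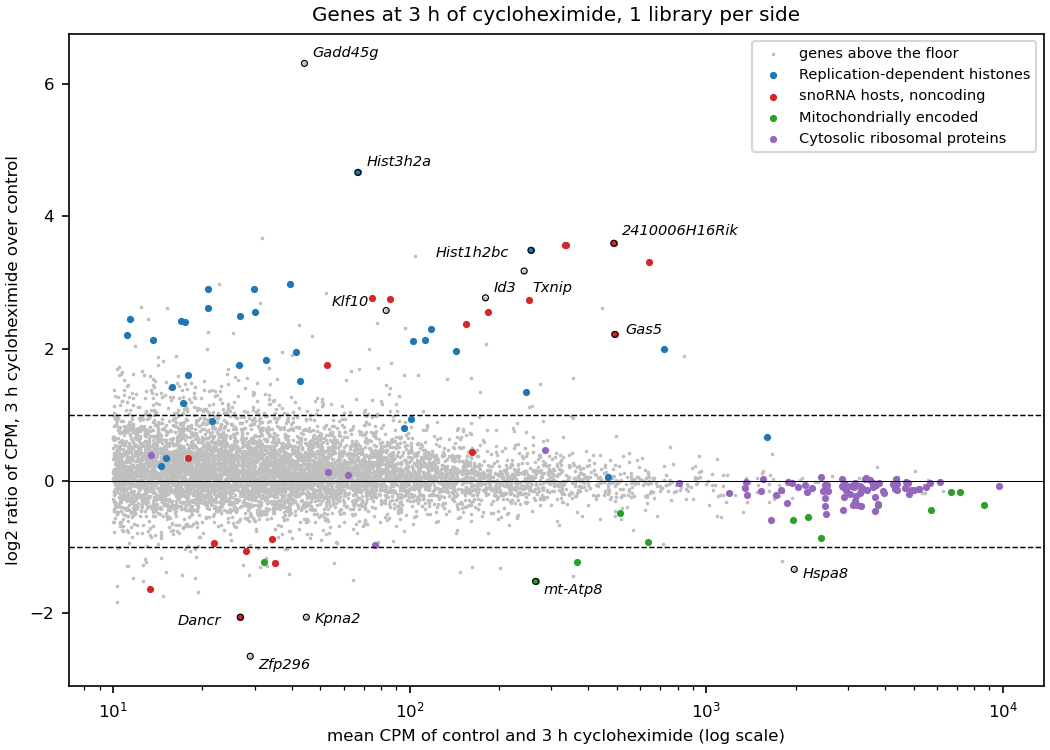
Log2 ratio of CPM at 3 h over control (vertical axis) against the mean CPM of both libraries (horizontal axis, log scale) for the 7493 genes above the floor; coloured points are members of 4 gene lists, rings mark labelled genes and dashed lines lie at 2-fold. Of the histone genes 26 of 33 and of the noncoding snoRNA hosts 11 of 19 lie above the upper line, mitochondrially encoded genes lie below 0, and Gadd45g stands alone at 6.31.

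Among single genes, Gadd45g had the highest ratio. It encodes a small protein induced by DNA damage and growth arrest and acts on stress-activated kinases, and it lies at chr13:51846678-51848468 (GRCm38, GENCODE M21; 4 exons). It had 122 UMIs in the control, or 1.09 CPM, and 9322 UMIs at 3 h, or 87.2 CPM. The log2 ratio was 6.31 (interval 6.06 to 6.59), a 79.4-fold difference. Gadd45b was at 12.7 and 91.6 CPM and Gadd45a at 38.9 and 134 CPM in control and 3 h, log2 ratios of 2.85 and 1.78. The fourth gene of the list, Gadd45gip1, whose product binds Gadd45 proteins, was at 136 and 133 CPM. So the 3 stress-induced genes were more than 2-fold higher and the binding partner was not.

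Histone genes came next in size. The replication-dependent genes supply histones to newly made DNA, and because most of their messages end without a poly(A) tail, libraries of polyadenylated RNA catch only part of them. Of 67 such genes listed, 33 were above the floor, 14 of these only through the 3 h library. At least 2-fold higher were 26 of the 33, against 3.78% of all genes compared. None was lower, and the list's median log2 ratio was 2.00. All 11 H2B genes and all 4 H4 genes were at least 2-fold higher, as were 5 of 7 H2A genes, 4 of 6 H3 genes and 2 of 5 H1 genes. Included only through the 3 h library were 8 of the 11 H2B, 4 of the 7 H2A, 1 of the 6 H3 and 1 of the 4 H4 genes.

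Hist3h2a, an H2A gene at chr11:58954685-58956830, had the second highest ratio of all genes above the floor, with 5.07 CPM in the control and 129 CPM at 3 h (log2 4.66, interval 4.54 to 4.79). Hist3h2ba, an H2B gene, was at 4.93 and 36.9 CPM. Hist1h2bc was the most abundant H2B message, at 42.0 and 471 CPM (log2 3.49). The difference was not the same over the list. Hist1h2ap, the most abundant member of the list, was at 1241 and 1963 CPM (log2 0.66), and Hist1h1b at 458 and 476 CPM (log2 0.06, which becomes negative under TMM factors). Hist1h2ae, also abundant, was at 289 and 1154 CPM (log2 2.00). Histone genes of 1 class are nearly identical in their coding parts, so reads may be shared between them.

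Genes that make or use the messages differed less. Of 15 histone processing factors above the floor, Cstf2t, a cleavage stimulation factor, was 2-fold higher (13.8 and 28.2 CPM, log2 1.03), and Slbp, which binds the stem-loop of histone messages, was at 124 and 177 CPM (log2 0.52). Among 11 replacement histones, made outside DNA replication, H1f0, a linker histone of resting cells, was at 15.2 and 58.8 CPM (log2 1.95). The other 10 stayed within 2-fold, with H2afz at 3229 and 3191 CPM.

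**Figure D2:**
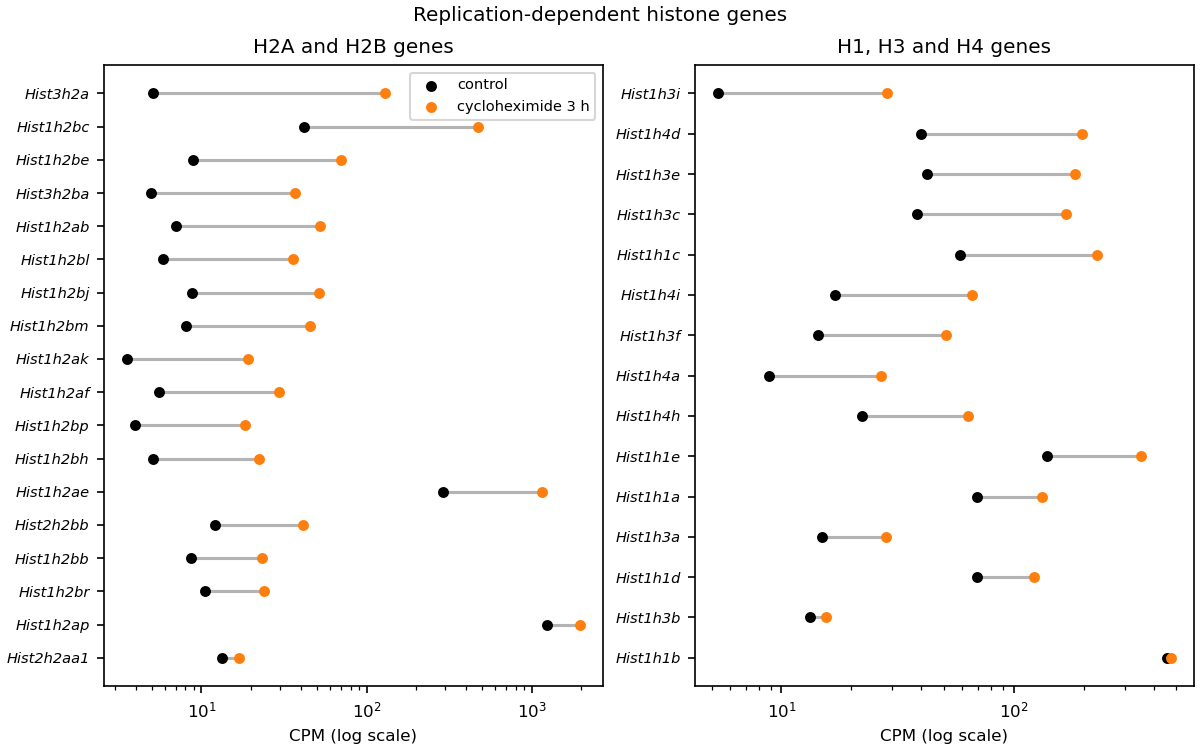
CPM (log scale) of the 33 replication-dependent histone genes above the floor in the control (black) and at 3 h of cycloheximide (orange), 1 library each, ordered by ratio within each panel. The 11 H2B genes, the 4 H4 genes and Hist3h2a have their 3 h value to the right, whereas the values of Hist1h1b lie close together. Of the 11 H2B genes, 8 were above the floor only through the 3 h library.

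The noncoding hosts of snoRNAs divided into 2 directions. These genes carry snoRNAs, which guide modification of ribosomal RNA, in their introns, and the spliced remainder has only short reading frames, so that it is a known substrate of NMD. Of 21 listed, 19 were above the floor, 11 at least 2-fold higher and 4 at least 2-fold lower, with a median log2 ratio of 2.22. The 11 higher calls hold under both other scalings, while the lower ones number 2 by UMIs per cell and 6 under TMM factors. The highest were 2410006H16Rik (74.7 and 901 CPM, log2 3.59), Zfas1 (52.2 and 621 CPM, log2 3.57), Snhg15 (52.2 and 618 CPM, log2 3.56) and Snhg1 (118 and 1168 CPM, log2 3.30). All 4 were at least 8-fold higher. Snhg16, Snhg17, Snhg12, Snhg6, Epb41l4aos, Gas5 and Snhg5 had log2 ratios from 2.77 down to 1.75.

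On the other side stood Dancr (43.3 and 10.4 CPM, log2 -2.06), Snhg9 (20.1 and 6.48 CPM, log2 -1.63), Snhg4 (49.2 and 20.8 CPM, log2 -1.24) and Snhg3 (37.9 and 18.3 CPM, log2 -1.05). Snhg11 and Snhg20 were also lower, by less than 2-fold (log2 -0.93 and -0.88), and Snhg14 and Snhg8 were slightly higher (log2 0.35 and 0.44). In the control, Dancr reached 317 CPM in the free RNA of barcodes with 10 to 100 UMIs, against 43.3 CPM in cells; at 3 h the values were 61.7 and 10.4 CPM. Its level in cells therefore lay below that of free RNA in both libraries, and the part of free RNA in its ratio was not tested. Host genes that make protein stayed nearer the control. Of 24, Eif4a2, an RNA helicase of translation initiation, was higher (147 and 405 CPM, log2 1.46), and Hspa8, described below, was lower. Taf1d was at 236 and 465 CPM (log2 0.98). The median of the 24 was 0.07, and it becomes negative under TMM factors.

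**Figure D3:**
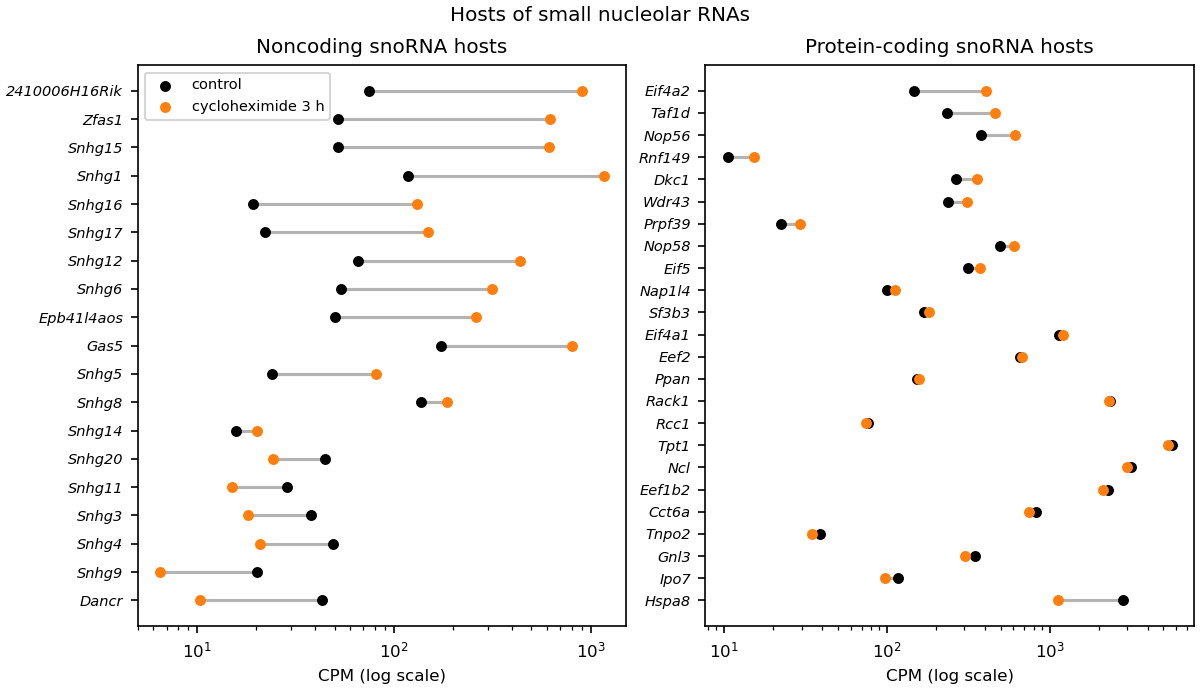
CPM (log scale) in the control (black) and at 3 h (orange) for 19 noncoding and 24 protein-coding hosts of snoRNAs. For 11 noncoding hosts the 3 h value lies 2-fold or more to the right and for 4 as far to the left, and 22 of the 24 coding hosts lie within 2-fold.

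Factors of RNA surveillance and splicing, many of which carry regulatory exons that send their own messages to NMD, had mostly small ratios. The 16 NMD factors above the floor had a median log2 ratio of 0.22, and none passed 2-fold; Pnrc2, a partner of decapping, was highest (26.8 and 50.7 CPM, log2 0.92). Of 12 SR and Tra2 splicing factors none passed 2-fold, and the median was 0.34, above that of all genes. Tra2a, an activator of splicing, was at 93.2 and 149 CPM (log2 0.68). Of 8 genes of the list of kinases acting on splicing factors, Clk4 passed 2-fold (20.4 and 41.2 CPM, log2 1.02) and Clk1 was just inside (50.2 and 98.8 CPM, log2 0.98). The 25 genes of the hnRNP list, which also holds Ptbp and Pcbp genes, had a median of -0.07, which turns positive by UMIs per cell, with Hnrnpu lowest (804 and 559 CPM, log2 -0.52). Ccnl1, a cyclin of splicing regulation outside these lists and picked after its value was seen, was at 69.7 and 293 CPM (log2 2.07).

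Immediate early and short-lived regulatory genes differed among themselves. Of 10 genes of the AP-1 and Egr list above the floor, 5 (3 under TMM factors) were at least 2-fold higher: Klf6 (16.9 and 63.2 CPM), Jun (15.7 and 51.6 CPM), Ier2 (181 and 530 CPM), Egr1 (12.9 and 27.5 CPM) and Junb (55.6 and 116 CPM). Their log2 ratios ran from 1.91 for Klf6 to 1.06 for Junb. As a background for this list and the next, 3.78% of all genes compared were 2-fold higher and 0.614% lower. Fos, the partner of Jun in AP-1, was at 45.4 and 20.2 CPM (log2 -1.17), and Fosb and Nr4a1 were lower too, by less than 2-fold (log2 -0.84 and -0.76). In the NF-kappaB list Nfkbia, the inhibitor that holds NF-kappaB in the cytoplasm and is itself a target of it, was at 24.9 and 131 CPM (log2 2.39), and the subunit gene Relb at 6.91 and 25.6 CPM (log2 1.89). The other 6 of 8 stayed within 2-fold, Nfkb1 being lowest (log2 -0.47). Icam1, an adhesion molecule and known target picked after its value was seen, was at 36.8 and 120 CPM (log2 1.70). The Nfkbia promoter carries a kappaB element in the RefSeq window, shown in capitals in this stretch of chr12:55492648-55492696, minus strand.
Nfkbia: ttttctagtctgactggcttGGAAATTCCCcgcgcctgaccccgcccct
The kappaB motif was present on either strand in 9.55% of the genes of the table, and no match was found in the window of Icam1. Among genes with a window it was present in 11.5% of those above the floor, 8.30% of the 2-fold higher ones and 6 of 30 2-fold lower ones.

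Among targets of BMP and Smad signalling, Id3 and Id2, which block basic helix-loop-helix factors, were at 46.1 and 314 CPM (log2 2.77) and at 32.2 and 160 CPM (log2 2.31). The pseudoreceptor gene Bambi was at 11.3 and 29.3 CPM (log2 1.38). Their relative Id1 was already abundant and was at 242 and 310 CPM (log2 0.36), and Hes1, a repressor downstream of Notch, was lower at 52.9 and 32.1 CPM (log2 -0.72). Smad7 and Bmp4 of the same list were also lower, at 125 and 95.7 CPM (log2 -0.38) and at 101 and 68.8 CPM (log2 -0.56). So 3 of 8 genes of this list were 2-fold higher and none was 2-fold lower, against 3.78% and 0.614% of all genes compared. Of the 8, 4 had ratios above 0 and 4 below, and 5 were above 0 by UMIs per cell. The Krüppel-like family, Klf6 among them, was a list chosen after the values were seen, and 3 of its 9 genes were 2-fold higher, Klf10 most (23.9 and 143 CPM, log2 2.58). Txnip, Arrdc3 and Arrdc4, the only 3 alpha-arrestin genes above the floor, were all higher, at log2 ratios of 3.17, 2.36 and 1.45; this list too was chosen after its values were seen. Txnip, which restrains glucose uptake, was at 48.5 and 438 CPM.

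Stem cell genes were examined by role. The list named for naive pluripotency also holds Pou5f1, Sox2, Sall4, Mybl2 and Zfp281, so it is not specific to the naive state. Among its 16 genes above the floor the median log2 ratio was 0.37. Of these genes 14 lay above the median of all genes, and none passed 2-fold. Klf2 was highest (196 and 368 CPM, log2 0.91), Nanog was at 123.4 and 175 CPM (log2 0.50), and Tfcp2l1 was lowest (80.4 and 51.1 CPM, log2 -0.65). The median stayed positive under TMM factors (0.20). Among formative and Nodal genes, 2 of 15 were at least 2-fold higher, Nodal, a signal of the TGF-beta family (31.3 and 70.5 CPM, log2 1.17), and Sox4 (21.3 and 43.3 CPM, log2 1.03). Another 2 were at least 2-fold lower, Pou3f1 (15.5 and 5.17 CPM, log2 -1.58) and Foxd3 (17.1 and 6.22 CPM, log2 -1.46), both transcription factors of the exit from naive pluripotency. Under TMM factors neither Nodal (0.995) nor Sox4 (0.85) is 2-fold higher, and both lower genes are still 2-fold lower. The shares over all genes compared were 3.78% higher and 0.614% lower. Among LIF and STAT3 genes the kinase gene Pim1 was higher (48.8 and 121 CPM, log2 1.31) and the homeobox gene Gbx2 lower (95.3 and 33.8 CPM, log2 -1.50). None of 11 ERK feedback genes passed 2-fold; Spry4 was lowest (51.9 and 28.5 CPM, log2 -0.87) and Phlda1 highest (33.2 and 58.2 CPM, log2 0.81).

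The lowest ratios belonged to single genes of several pathways. Zfp296, a zinc finger gene typical of pluripotent cells at chr7:19577287-19580656, was at 50.04 CPM in the control and 7.98 CPM at 3 h (log2 -2.65, interval -2.75 to -2.54). Kpna2, an importin that carries proteins into the nucleus, was at 72.3 and 17.4 CPM (log2 -2.06), while the other 25 genes of its list, which also holds Ran, Ranbp1 and Rcc1 of the transport cycle, stayed within 2-fold and had Xpot as their lowest (log2 -0.62). Mat2a, which makes S-adenosylmethionine, was at 288 and 116 CPM (log2 -1.31) and was the single member of 17 methionine and polyamine genes past 2-fold. Ftl1, the ferritin light chain, was at 214 and 82.8 CPM (log2 -1.37), whereas Fth1, the heavy chain, was at 2123 and 1779 CPM (log2 -0.26, positive by UMIs per cell). Neat1, the scaffold of paraspeckles, was at 41.8 and 15.6 CPM (log2 -1.42), and Malat1 at 2581 and 2716 CPM. Trim25, Tcf15, Map1a and Setd1b had log2 ratios from -1.41 to -1.26.

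Protein folding genes were lower as a group in the endoplasmic reticulum. Of 17 genes above the floor, 1 lay above the median of all genes, and the median was -0.38, negative under TMM factors (-0.55) and by UMIs per cell (-0.11). Herpud1, a factor of protein removal from that compartment, was at 29.5 and 9.21 CPM (log2 -1.68), and Xbp1, a transcription factor of the unfolded protein response, at 25.4 and 12.5 CPM (log2 -1.03). Hspa5, the main chaperone there, was at 391 and 247 CPM (log2 -0.66). In a list of 22 chaperone genes and their regulators, mostly cytosolic but with the mitochondrial Hspd1 and Hspe1, Hspa8, the constitutive HSP70, stood alone past 2-fold: it was at 2835 and 1125 CPM (log2 -1.33, interval -1.34 to -1.32). The 8 subunits of the CCT chaperonin lay between -0.22 and 0.06.

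The stress pathway of ATF4 had members on both sides. Ddit3, which encodes the factor CHOP, was at 13.4 and 28.1 CPM (log2 1.06) and Atf4 itself at 242 and 471 CPM (log2 0.96). Chac1, which degrades glutathione, was at 22.6 and 6.79 CPM (log2 -1.74), and Trib3, a pseudokinase induced by ATF4, at 46.9 and 19.3 CPM (log2 -1.28). The other 15 of 19 members, among them Asns at 293 and 298 CPM, were within 2-fold. None of 12 amino acid transporters passed 2-fold, with Slc38a2 lowest (103 and 54.3 CPM, log2 -0.92). Of 15 p53 genes none passed 2-fold either, and Cdkn1a was at 28.3 and 30.5 CPM.

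Cell cycle lists lay on opposite sides of the median of all genes. Among 49 DNA replication genes 38 lay above the median of all genes (median 0.26, 0.09 under TMM factors), and Gins3, a subunit of the replicative helicase, was the only one past 2-fold, of 5 by UMIs per cell (17.99 and 49.7 CPM, log2 1.46). Of 40 mitotic genes 5 lay above the median of all genes; their median was -0.21, which turns positive (0.06) by UMIs per cell. Plk1, a mitotic kinase, was lowest (114 and 60.9 CPM, log2 -0.91). In the G1 list the inhibitor gene Cdkn2d was at 20.9 and 47.0 CPM (log2 1.17) and the transcription factor gene E2f2 at 20.04 and 8.94 CPM (log2 -1.16).

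The gene expression machinery outside translation had scattered higher members. Mediator, which links transcription factors to RNA polymerase, had 5 of 30 subunits (3 under TMM factors) at least 2-fold higher: Med7 (52.7 and 161 CPM, log2 1.61), Med22 (14.3 and 42.1 CPM, log2 1.56), Med20, Med18 and Med26. None of 28 RNA polymerase genes was 2-fold higher, and of all 7493 genes compared 3.78% were. Under TMM factors 186 of the 7493 were, and 634 by UMIs per cell. Of 37 tRNA modification genes, a list chosen after the values were seen, 7 (4 under TMM factors and 11 by UMIs per cell) were 2-fold higher, Trit1 most (11.5 and 37.3 CPM, log2 1.70). Of 153 zinc finger genes named by a number, 21 (15 under TMM factors and 48 by UMIs per cell) were 2-fold higher and Zfp296 alone was 2-fold lower, with a median of 0.53. Their highest was Zfp534 (30.4 and 96.1 CPM, log2 1.66), and Zfp990 was the most abundant of the higher ones (162 and 355 CPM, log2 1.13). Below 10 CPM in the control, and so included only through the 3 h library, were 36 of the 153. The same held for 4 of the 37 tRNA modification genes.

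Genes of the translation machinery and of energy metabolism lay near the control. None of 82 cytosolic ribosomal protein genes passed 2-fold, and 79 lay below the median of all genes; their median was -0.10, which turns positive (0.17) by UMIs per cell, and Rpl29 was lowest (101 and 51.7 CPM, log2 -0.96). Among 52 translation factors Eif4a2 alone did, and Eif4g1 was lowest (272 and 188 CPM, log2 -0.53). No gene passed 2-fold among 78 mitochondrial ribosomal proteins, 77 nuclear subunits of oxidative phosphorylation, 45 proteasome genes and 17 genes of glycolysis. Of 53 ribosome biogenesis genes Tsr1, a factor of small subunit maturation, did (59.1 and 122.7 CPM, log2 1.05). For comparison, 3.78% of all 7493 genes were 2-fold higher and 0.614% lower.

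Several other lists had few or no members past 2-fold. Among all 7493 genes 3.78% were 2-fold higher and 0.614% lower, so few or no calls do not set a short list apart. None of the 12 genes of the tubulin list, which also holds the autoregulation factor gene Ttc5, passed it, and Tubb3 was lowest (log2 -0.89). Of 13 selenoprotein genes, whose messages are known substrates of NMD when selenium is short, Selenos passed (49.7 and 112 CPM, log2 1.17). Of 14 actin and SRF target genes Ccn2, a matrix protein gene, passed (7.20 and 34.4 CPM, log2 2.26). Among 16 genes of the NRF2 oxidant response none passed, and Nfe2l2, which encodes NRF2, was highest (log2 0.90). No gene passed among 10 Wnt, 7 Myc network and 10 Bcl2 family genes, 19 factors of mRNA decay, 22 aminoacyl-tRNA synthetases, 17 Polycomb and 9 DNA methylation genes.

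Genes of mitochondrial DNA were lower, all 13 with negative ratios, and their median was -0.54 (-0.27 by UMIs per cell). The 7 complex I subunits had a median of -0.86 and the 3 complex IV subunits -0.17, positive by UMIs per cell. At least 2-fold lower were mt-Atp8 (394 and 138 CPM, log2 -1.52), mt-Nd6 (45.1 and 19.3 CPM, log2 -1.23) and mt-Nd4l (513 and 220 CPM, log2 -1.22). By UMIs per cell only mt-Atp8 is, and under TMM factors 5 of the 13 are. Both mt-Atp8 and mt-Nd4l overlap a longer reading frame on the same RNA, mt-Atp6 and mt-Nd4, which were at log2 -0.36 and -0.54, so how reads of the overlap were counted bears on their values. With the 62 control barcodes and 1 barcode at 3 h under 1% mitochondrial UMIs put back, the median of the 13 was -0.46.

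**Figure D4:**
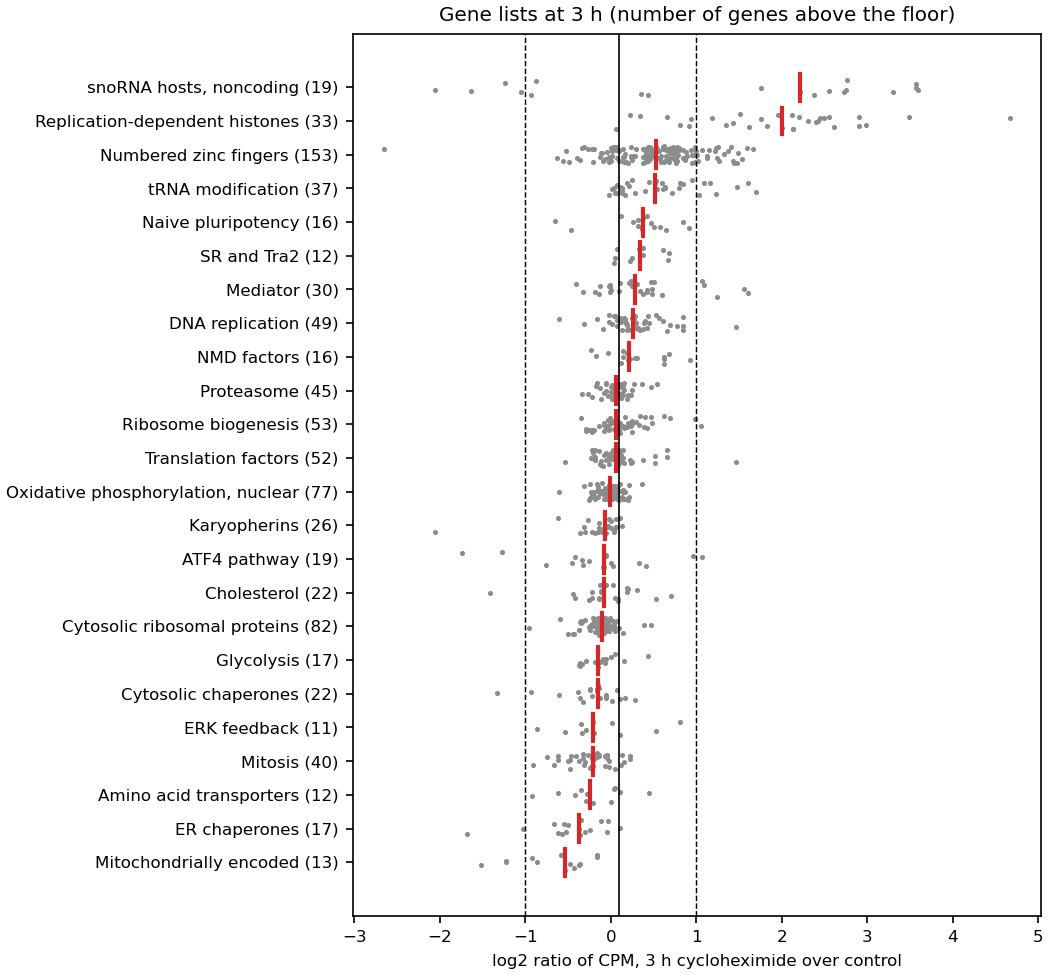
Log2 ratios of CPM at 3 h over control for the genes above the floor in 24 gene lists (grey points, 1 per gene, number in brackets); red bars are list medians, the black line is the median of all genes (0.10) and dashed lines lie at 2-fold. Only the noncoding snoRNA hosts and the histones have medians past 2-fold among these lists, and the mitochondrially encoded genes have the lowest median (-0.54).

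Whether a difference was carried by many cells or few was examined after thinning each cell to 15000 UMIs, so that cells of both libraries had equal depth. Snhg1 gave at least 1 UMI in 83.9% of control cells and in 1739 of 1739 cells at 3 h, with medians of 2 and 17 UMIs per cell. Txnip was seen in 47.5% of control cells (interval 45.4% to 49.6%) and 99.4% at 3 h (98.9% to 99.7%), with medians of 0 and 6. Hspa8 was seen in every cell of both libraries, and its median was 42 UMIs in the control and 17 at 3 h. For these genes the whole distribution of cells was displaced.

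Gadd45g had another form. It was seen in 1.46% of control cells (interval 1.00% to 2.06%) and 40.7% at 3 h (38.3% to 43.0%), and the 10% of cells richest in it held 61.0% of its UMIs at 3 h. The highest cell had 47 UMIs, while the median cell had 0. Without thinning the shares were 3.38% and 61.3%. In free RNA, Gadd45g was at 2.22 CPM in the control, above the 1.09 CPM of the cells, and at 68.7 CPM at 3 h, below the 87.2 CPM of the cells. The part of free RNA in the control level, in the share of control cells and so in the ratio was not tested. All cells are of 1 type, so no other type gives a background share. For Id3 the richest 10% held 35.8% of UMIs at 3 h, and it was seen in 37.9% and 76.5% of cells. Hist1h2bc was seen in 41.2% and 95.3% of cells, with the richest 10% holding 30.2% at 3 h. Zfp296 was seen in 49.2% of control cells and 9.89% at 3 h. Actb, an actin gene given for comparison, had medians of 33 and 34 UMIs.

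**Figure D5:**
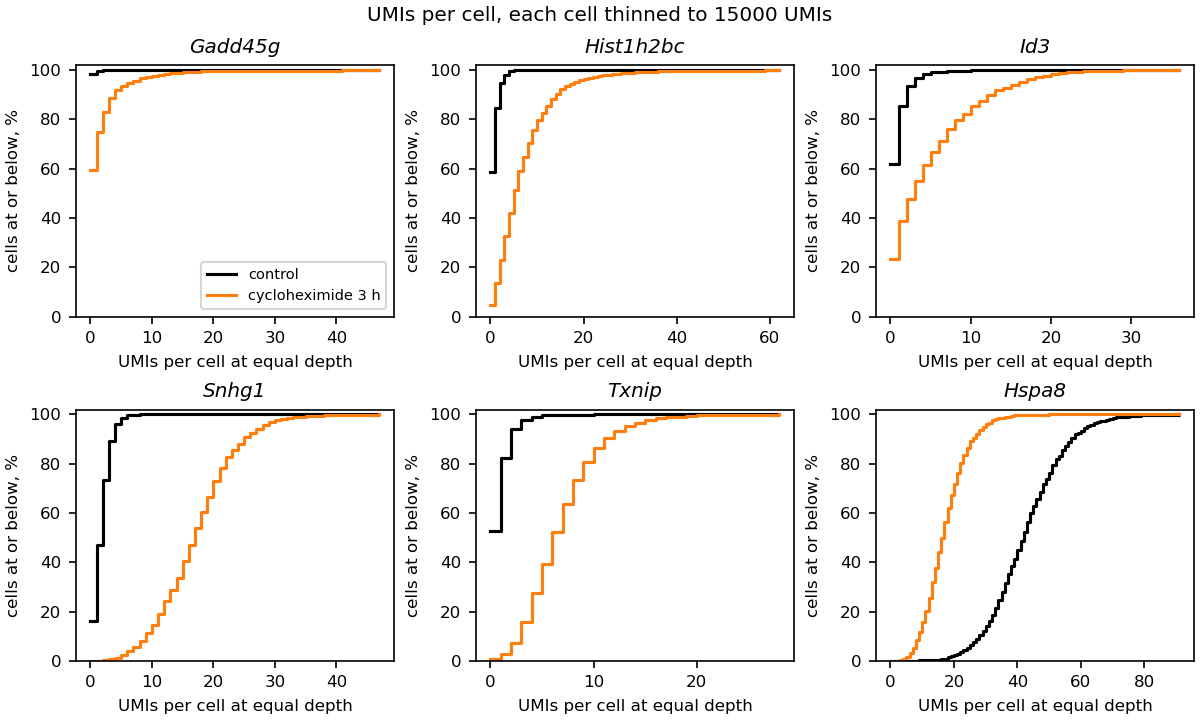
Cumulative share of cells (vertical axis, %) with at most the given number of UMIs (horizontal axis) for 6 genes, each cell thinned to 15000 UMIs; black is the control (2187 cells) and orange is 3 h (1739 cells). The curves of Snhg1, Txnip and Hspa8 are displaced over their whole range, whereas 59.3% of cells at 3 h have no Gadd45g UMI.

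Gene type and exon number, which the ratio did not use, were compared between the genes past 2-fold and all genes. Of the 283 higher genes 9.19% (26) were not protein coding in the GENCODE annotation, against 1.48% of all 7493 genes, and of the 46 lower genes 15.2% (7). The noncoding snoRNA hosts, 11 of them higher and 4 lower, were not set aside here. Single-exon genes made up 12.4% of the higher genes (5.06% once the clustered histones were set aside) and 15.2% of the lower genes, against 1.94% of all. Of the 46 lower genes, 3 are mitochondrially encoded. Among protein-coding genes the share that was higher differed with the number of exons: 7.21% of genes with 1 to 6 exons were 2-fold higher, 2.40% with 7 to 9, 2.06% with 10 to 15 and 1.00% with 16 or more. The clustered histones were not set aside in these exon groups. Exon number goes with gene length and level, and their separate parts were not tested.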

How the data were processed

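The deposited values were raw UMI counts per gene and barcode, which the authors made with Cell Ranger 4.0.0 and mm10 per the submitters' processing notes; cells had not been called. The libraries held 127601369 (control) and 115188502 (3 h) UMIs. The gene annotation used for counting is not given in the sources used here. Doublets were not removed. Counts were summed over the kept cells (111447486 and 106842407 UMIs), scaled to CPM, and log2 ratios took a prior of 0.5 counts. Intervals (95%) are exact Poisson, conditional binomial or Clopper-Pearson, and cover counting error only. Python 3.11.15, numpy 2.4.6, scipy 1.17.1 and edgeR 4.0.16 in R 4.3.3 (TMM factors only) were used. Ratio code was tested on simulated data. Members and gene lists were chosen with earlier results of these data known, and 3 lists were chosen after the values were seen.

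Genes were named by rule: the 15 highest and 15 lowest ratios at a mean of at least 20 CPM with an interval leaving out 0 and the same sign under both other scalings; the 8 highest and 8 lowest among genes of at least 500 CPM in either library; and list members past 2-fold, otherwise the highest and lowest. Not every qualifying gene is printed. Sequences came from RefSeq windows on GRCm38.p6, with symbols matched through older names at the same position, and coordinates of genes from GENCODE M21. Protein sequences planned for tubulins and selenoproteins were not used here.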

Additional observations from a re-analysis of the deposited data

How the results depend on the processing

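No paired analysis was possible because each group has 1 library. For the same reason no replicate could be left out, and no group was large enough to look for outlying samples. Depth limits genes below the floor: without a floor, 2482 genes were 2-fold higher and 586 lower with a median of 0.16, and with a floor of 50 CPM 68 and 10 with a median of 0.0503. Under TMM factors 186 were higher and 74 lower, and by mean UMIs per cell 634 and 26. The median of all genes was -0.0744 under TMM factors, 0.37 by UMIs per cell, -1.73e-05 under median-of-ratios factors, which set it to 0 by construction, 0.033 with totals without mitochondrial and ribosomal protein genes, 0.11 without the lower mitochondrial limit and 0.11 with the floor taken over 3 libraries. Under the other alternatives the 2 counts stayed within 1.5 times the main ones and the median between 0.09 and 0.11. All 40 genes named by size kept their sign under the 13 alternatives run on them. For the 15 highest and 15 lowest, the same sign under TMM factors and UMIs per cell was a condition of naming. The smallest ratio in size, that of Tubb4b (log2 -0.74), lies beyond both shifts, so these scalings could not reverse any of the signs. The side of the all-gene median, which a scaling cannot change, was kept by 60 of 67 lists with a floor of 50 CPM, 61 without a floor, 63 with the higher UMI minimum per cell and 64 to 67 under the other alternatives. Without the lower mitochondrial limit 307 genes were higher and 43 lower, and the median of the mitochondrially encoded genes was -0.46. Leaving out cells above 120000 UMIs, which could hold doublets, gave 291 and 48. There were 43 such cells among 2187 in the control and 124 among 1739 at 3 h. This alternative was run on CPM only, so their part in the shift by UMIs per cell was not tested.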

Other observations

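Of the 283 genes at least 2-fold higher, 158 were in none of the gene lists, and of the 46 lower genes 21; the examples that follow were picked after their values were seen. Zic5, a zinc finger transcription factor, was at 5.11 CPM in the control and 40.5 CPM at 3 h (log2 2.98). Rassf1, a tumour suppressor of the Ras association family, was at 16.8 and 76.6 CPM (log2 2.19), and Cirbp, the cold-inducible RNA-binding protein, at 47.2 and 144 CPM (log2 1.60). Mymx, known for its part in muscle cell fusion, was at 97.8 and 248 CPM (log2 1.34). On the lower side, the secreted factors Vegfa (16.1 and 4.50 CPM, log2 -1.83) and Gdf15 (18.7 and 6.56 CPM, log2 -1.51) had log2 ratios close to that of Chac1 (-1.74).

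Some transcripts without a name were among the furthest from the control. The antisense transcript A930015D03Rik was at 4.64 and 59.0 CPM, 5430416N02Rik at 17.9 and 190 CPM, 1110038B12Rik at 126 and 766 CPM and Gm47283 at 356 and 1321 CPM. Of 195 such genes above the floor, 25 (49 by UMIs per cell) were at least 2-fold higher and 2 (1 by UMIs per cell) lower, Gm26917 (519 and 191 CPM) and Gm10076 (2517 and 1090 CPM). Of all 7493 genes, 3.78% were 2-fold higher and 0.614% lower. Below 10 CPM in the control, and so included only through the 3 h library, were 23 of the 195. Reads of unnamed genes may be shared with near-identical copies. In the 6 h library, which is compared with the same control, Gadd45g was at 292 CPM, Snhg1 at 1693 CPM, Hspa8 at 477 CPM and Egr1 at 3.01 CPM.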
